A study of Mus musculus with 9 samples.

Results

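The complement genes described here are 8 genes of 38926 in each deposited table: C3, C4b and C1s, which encode components of the cascade, Serping1, Cd55 and Cd59a, which encode its inhibitors, and C3ar1 and C5ar1, which encode the receptors of its activation fragments. They were chosen by gene symbol, with earlier results of these data known. Each had 1 row under that symbol, and all 8 were among the 17348 genes tested. Lumbar dorsal root ganglia (L3 to L5, taken from the side of the treated paws) came from wild-type male C57BL/6 mice aged 8 to 10 weeks. One group had received cisplatin and another oxaliplatin, each injected into the hind paw to a cumulative 40 µg, and the third had received vehicle. Each group had 3 libraries of total RNA, and each library pooled the ganglia of 4 mice, so the spread between single animals was not measured. No time between injection and dissection is given in the labels.

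Complement is a protease cascade that marks surfaces for removal, attracts phagocytes and can perforate membranes. The classical pathway starts when C1q binds a target, its partner protease C1r activates C1s, and C1s cleaves C4 and C2. The lectin and alternative pathways reach the same central step, the cleavage of C3, from carbohydrate recognition and from spontaneous C3 turnover. The fragments C3a and C5a act on receptors of myeloid cells, while C1 inhibitor (Serping1), decay accelerating factor (Cd55) and protectin (Cd59a) restrain the cascade at its start, at the C3 convertases and at the membrane pore. Plasma complement is made largely by the liver, but macrophages, fibroblasts, endothelial cells and glia also transcribe parts of it. In the spinal cord and peripheral nerve, complement has been studied for its part in pain after nerve injury.

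Transcripts of 5 of the 8 genes were higher after either drug than after vehicle: C3, C1s, Serping1, Cd59a and C3ar1. Of all tested genes, 38.7% were called after cisplatin (15.8% higher) and 41.6% after oxaliplatin (17.5% higher). C5ar1 passed the test after cisplatin only, and the difference between the drugs for C5ar1 did not pass. C4b and Cd55 did not pass against vehicle for either drug. The largest change was that of C3 and C5ar1 after cisplatin, each 1.75 times the vehicle level, and the smallest to pass was that of Cd59a, 1.14 times. The calls of Serping1 and Cd59a were lost for both drugs with correction for GC content and length, which left 3 genes higher after oxaliplatin and 4 after cisplatin. With 1 library left out, C3ar1 kept its call in 7 of 9 fits for cisplatin and 6 of 9 for oxaliplatin. C5ar1 kept its cisplatin call in 5 of 9 such fits, and Serping1 in 6 of 9. Only C3 and C1s kept their calls for both drugs in all of these fits and under all other processing.

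Reads assigned to genes numbered 31971613 to 38168902 per cisplatin library, 35520144 to 38808509 per oxaliplatin library and 22819185 to 32022672 per vehicle library. One library, vehicle 2, differed most from the rest. In it 74.5% of the recorded reads had no single gene, against 42.8 to 48.8% in the others, and 32.9% of gene reads fell on its top 10 genes, against 6.81 to 8.93% in the others. Unique reads lying outside genes made up 16.6 to 19.1% in the drug libraries and 26.2 to 47.7% in the vehicle libraries. Every vehicle library thus lay above every drug library in this share, a difference that runs with treatment. Its part in the fold changes against vehicle was not tested and cannot be told apart from that of the drugs. Markers of sensory neurons, the defining cells of the ganglion, were all detected, with a summed level of 16970 to 19510 CPM (reads scaled to a common library total) in cisplatin libraries, 17930 to 19140 in oxaliplatin libraries and 19020 to 20380 in vehicle libraries. Of these 12 markers 0 were higher and 4 lower (33.3%) after each drug, with a median log2 fold change of -0.16 after cisplatin and -0.16 after oxaliplatin. The shares of all tested genes called lower were 22.9% after cisplatin and 24.1% after oxaliplatin. Levels below are CPM of TMM-scaled library totals. Fold changes and adjusted p-values come from the edgeR quasi-likelihood test over all tested genes, and a gene was called where the adjusted p was under 0.05.

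Positions are those of GENCODE M21 on GRCm38. C3 lies on the minus strand at chr17:57203970-57228136, and C4b, in the major histocompatibility complex, on the minus strand at chr17:34728380-34743882. C1s, now named C1s1, is at chr6:124530345-124542359 and C3ar1 at chr6:122847138-122856161, both on the minus strand. Serping1 is at chr2:84765387-84775444 (minus), Cd59a at chr2:104095801-104115354 (plus), C5ar1 at chr7:16246743-16259540 (minus) and Cd55 at chr1:130439027-130462744 (minus).

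Some members have close copies, and the files keep reads that align to more than 1 place in a class of their own. Of the 75-base stretches of the longest C4b transcript, 23.5% also occurred in C4a. For C1s the share was 28.0%, in C1s2 or in the antisense gene Gm16567. It was 8.5% for Cd55, mainly in Cd55b, and 1.73% for Cd59a, in Cd59b. C3, Serping1, C3ar1 and C5ar1 shared none. Reads from a stretch shared with a copy align to more than 1 place and fall in that separate class. They are therefore missing from the counts of C4b, C1s, Cd55 and Cd59a. Reads assigned to the copies themselves were few: 5 to 20 per library for C4a, 1 to 4 for C1s2 (in the files as Gm5077), 0 to 4 for Cd55b (in the files as Daf2) and 11 to 38 for Cd59b. The antisense genes Gm16567, over C1s, and Gm16083, over Cd55, had 0 to 5 and 73 to 144 reads.

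The promoters of C3, C1s and C3ar1 are shown because these genes rose by a log2 fold change of at least 0.41 after both drugs, as described further on. RefSeq sequences of GRCm38.p6 were found for 6 of the 8 genes. Each run is the 250 bases before the annotated start, on the minus strand and written 5′ to 3′. Capitals mark matches, on either strand, to a gamma-activated site (TTCNNNGAA), a C/EBP motif (TTNNGNAAT) or a kB motif (GGG, any 2 bases, then TTTCC).
C3, chr17:57228137-57228386: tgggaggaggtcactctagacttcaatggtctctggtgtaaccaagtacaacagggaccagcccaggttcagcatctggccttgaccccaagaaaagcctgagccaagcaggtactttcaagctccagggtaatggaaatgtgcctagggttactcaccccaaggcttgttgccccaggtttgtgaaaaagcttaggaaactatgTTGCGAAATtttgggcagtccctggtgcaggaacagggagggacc
C1s, chr6:124542360-124542609: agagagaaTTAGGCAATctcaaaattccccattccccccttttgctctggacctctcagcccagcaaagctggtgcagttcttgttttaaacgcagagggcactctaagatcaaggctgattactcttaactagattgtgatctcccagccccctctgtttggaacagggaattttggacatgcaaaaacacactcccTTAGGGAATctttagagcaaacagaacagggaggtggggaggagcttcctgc
C3ar1, chr6:122856158-122856407: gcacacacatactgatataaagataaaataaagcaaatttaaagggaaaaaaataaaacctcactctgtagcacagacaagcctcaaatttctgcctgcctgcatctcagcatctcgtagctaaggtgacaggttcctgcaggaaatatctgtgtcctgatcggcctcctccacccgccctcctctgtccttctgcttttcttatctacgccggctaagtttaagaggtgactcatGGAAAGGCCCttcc
C3 holds 1 match to the C/EBP motif, which begins 45 bases before the start, and C1s holds 2, which begin 242 and 52 bases before it. C3ar1 holds 1 match to the kB motif, 14 bases before the start. Cd55, Cd59a and C5ar1 hold no match to any of the 3. Of 32851 RefSeq promoter windows of the same length, 10.2% hold the C/EBP motif, 1.41% the kB motif and 7.02% the gamma-activated site, which none of the 6 genes holds. A second annotated C1s start, whose window overlaps the one shown, has 1 C/EBP match. The promoters shown were picked by fold change, so the matches are a description, and their part in the rises was not tested.

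Per kilobase of exon, the vehicle level of Cd55 was the highest, at 119 ± 4.71 CPM per kb (SD, n = 3). Serping1 followed at 50.5 ± 4.24 and Cd59a at 47.6 ± 2.495 CPM per kb, and their libraries overlapped. Next came C4b at 7.32 ± 1.07, C1s at 4.31 ± 0.255 and C3 at 1.22 ± 0.254 CPM per kb. C3ar1 at 0.705 ± 0.131 and C5ar1 at 0.496 ± 0.120 CPM per kb were lowest and overlapped. The inhibitors were present at several times the level per length of the cascade components, and the anaphylatoxin receptors were rarest. The order of the group means was the same after cisplatin and after oxaliplatin.

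**Figure D1:**
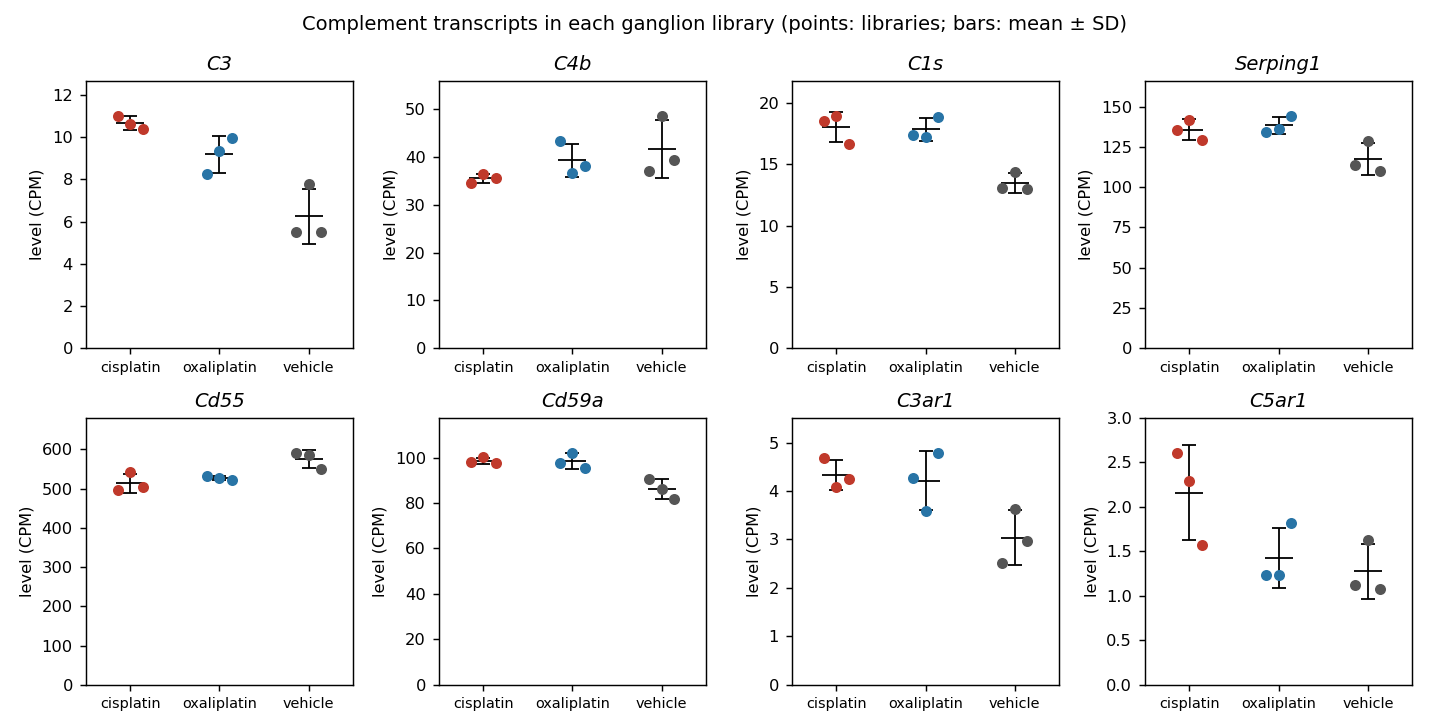
Level in CPM (vertical axes, from 0) of the 8 complement genes in each of the 9 libraries, by group (cisplatin, oxaliplatin, vehicle). Points are libraries, and bars are the mean ± SD of 3. C3, C1s, Serping1 and Cd59a have every drug library above every vehicle library, while Cd55 has every drug library below.

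C3, the protein on which all 3 activation pathways converge, had 11.01, 10.6 and 10.4 CPM in the cisplatin libraries, 8.26, 9.36 and 9.98 CPM in the oxaliplatin libraries, and 5.51, 7.77 and 5.49 CPM in the vehicle libraries. Every drug library lay above every vehicle library, of which library 2 was the highest. C3 rose after cisplatin by a log2 fold change of 0.80 (SE 0.12, 95% interval 0.54 to 1.07, adjusted p = 0.000394). It rose after oxaliplatin by 0.59 (SE 0.12, interval 0.32 to 0.86, adjusted p = 0.00266). The cisplatin libraries also lay above the oxaliplatin libraries, but that difference did not pass (0.21, interval -0.03 to 0.46, adjusted p = 0.777). Both rises passed under all 11 alternatives and without any 1 of the 9 libraries.

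C1s, the classical pathway protease that cleaves C4 and C2, had 18.6, 19.0 and 16.7 CPM after cisplatin, 17.4, 17.3 and 18.9 CPM after oxaliplatin, and 13.1, 14.4 and 13.0 CPM after vehicle. The drug libraries did not overlap the vehicle libraries, and the drugs overlapped each other. C1s rose by 0.43 after cisplatin (SE 0.08, interval 0.26 to 0.59, adjusted p = 0.00102) and by 0.41 after oxaliplatin (SE 0.08, interval 0.25 to 0.58, adjusted p = 0.00121). Between the drugs it differed by 0.02 (interval -0.14 to 0.17, adjusted p = 0.977). These calls too held under all 11 alternatives and without any 1 library.

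C4b, whose product C1s cleaves, had 34.6, 36.5 and 35.6 CPM after cisplatin, 43.3, 36.6 and 38.1 CPM after oxaliplatin, and 37.1, 48.6 and 39.4 CPM after vehicle. The cisplatin libraries lay below the vehicle libraries, by a narrow margin, and the oxaliplatin libraries overlapped them. The log2 fold change was -0.22 for cisplatin (SE 0.09, interval -0.42 to -0.02, adjusted p = 0.0804) and -0.08 for oxaliplatin (SE 0.09, interval -0.28 to 0.13, adjusted p = 0.536). Neither passed, and cisplatin against oxaliplatin gave -0.14 (interval -0.34 to 0.05, adjusted p = 0.804). Vehicle library 2 was the highest of all 9, and without it the oxaliplatin value was 0.06 (adjusted p = 0.537). Under library totals alone, which moved the median of all genes to 0.29 for cisplatin and 0.30 for oxaliplatin, C4b was at 0.09 and 0.24, below those medians.

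The regulators differed among themselves. Serping1, the inhibitor of C1r and C1s, had 136, 142 and 129 CPM after cisplatin, 134, 136 and 144 CPM after oxaliplatin, and 113, 129 and 110 CPM after vehicle. All drug libraries lay above the vehicle libraries. It rose by 0.21 after cisplatin (SE 0.06, interval 0.07 to 0.35, adjusted p = 0.0199) and by 0.24 after oxaliplatin (SE 0.06, interval 0.10 to 0.38, adjusted p = 0.01001), and the drugs differed by -0.03 (interval -0.16 to 0.11, adjusted p = 0.955). The cisplatin call was lost without cisplatin library 2 (0.18, adjusted p = 0.0877), vehicle library 1 (0.21, adjusted p = 0.0521) or vehicle library 3 (0.17, adjusted p = 0.0781). A fit without the dependence of each library on GC content and exon length gave 0.04 (adjusted p = 0.553) and 0.07 (adjusted p = 0.272).

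Cd59a, the membrane inhibitor of the pore, had 97.9, 100.1 and 97.4 CPM after cisplatin, 97.7, 102.2 and 95.4 CPM after oxaliplatin, and 90.8, 86.3 and 81.7 CPM after vehicle. Again no drug library overlapped a vehicle library. The rise was 0.19 after cisplatin (SE 0.05, interval 0.08 to 0.30, adjusted p = 0.0106) and 0.19 after oxaliplatin (SE 0.05, interval 0.08 to 0.30, adjusted p = 0.01003). The drugs differed by 0.00 (interval -0.11 to 0.11, adjusted p = 0.9999). The calls held without any 1 library but not after correction for GC content and length, which left 0.08 (adjusted p = 0.209) and 0.10 (adjusted p = 0.115).

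Cd55, which speeds the decay of the C3 convertases and is the most abundant member, had 496, 542 and 504 CPM after cisplatin, 532, 528 and 522 CPM after oxaliplatin, and 592, 587 and 550.0 CPM after vehicle. Every drug library lay below every vehicle library, but neither comparison passed: the log2 fold change was -0.17 for cisplatin (SE 0.06, interval -0.31 to -0.02, adjusted p = 0.0611) and -0.13 for oxaliplatin (SE 0.06, interval -0.27 to 0.01, adjusted p = 0.131). Cisplatin against oxaliplatin gave -0.04 (interval -0.18 to 0.10, adjusted p = 0.947). Cd55 was called lower after cisplatin by limma-voom (-0.17, adjusted p = 0.0268), by DESeq2 (-0.15, adjusted p = 0.0184) and without vehicle library 3 (-0.20, adjusted p = 0.0386). Under library totals alone it was at 0.13 for cisplatin and 0.18 for oxaliplatin, below the median of all genes given above.

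C3ar1, the receptor of C3a, had 4.67, 4.07 and 4.25 CPM after cisplatin, 4.28, 3.58 and 4.79 CPM after oxaliplatin, and 2.51, 3.63 and 2.96 CPM after vehicle. The cisplatin libraries lay above the vehicle libraries, while oxaliplatin library 2 fell within their range. C3ar1 rose by 0.54 after cisplatin (SE 0.15, interval 0.21 to 0.87, adjusted p = 0.0149) and by 0.50 after oxaliplatin (SE 0.15, interval 0.17 to 0.83, adjusted p = 0.0201), with a difference of 0.04 between the drugs (interval -0.26 to 0.34, adjusted p = 0.972). The cisplatin call was lost without cisplatin library 1 (0.48, adjusted p = 0.0505) or vehicle library 1 (0.44, adjusted p = 0.0649). The oxaliplatin call was lost without oxaliplatin library 3 (0.40, adjusted p = 0.0841), vehicle library 1 (0.40, adjusted p = 0.0818) or vehicle library 3 (0.49, adjusted p = 0.0589).

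C5ar1, the receptor of C5a, was the rarest member, with 26 to 95 reads per library. It had 2.61, 2.29 and 1.57 CPM after cisplatin, 1.23, 1.23 and 1.81 CPM after oxaliplatin, and 1.13, 1.63 and 1.07 CPM after vehicle. Cisplatin library 3 was the lowest of its group and lay below oxaliplatin library 3 and vehicle library 2, the highest of theirs. C5ar1 rose after cisplatin by 0.80 (SE 0.25, interval 0.26 to 1.35, adjusted p = 0.0245), while oxaliplatin gave 0.20 (SE 0.26, interval -0.36 to 0.77, adjusted p = 0.555). The direct comparison of the drugs gave 0.60 (SE 0.23, interval 0.10 to 1.09), which did not pass (adjusted p = 0.749). The cisplatin call was lost without cisplatin library 1 (0.65, adjusted p = 0.0873), cisplatin library 2 (0.75, adjusted p = 0.0728), vehicle library 1 (0.76, adjusted p = 0.0835) or vehicle library 3 (0.69, adjusted p = 0.101).

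**Figure D2:**
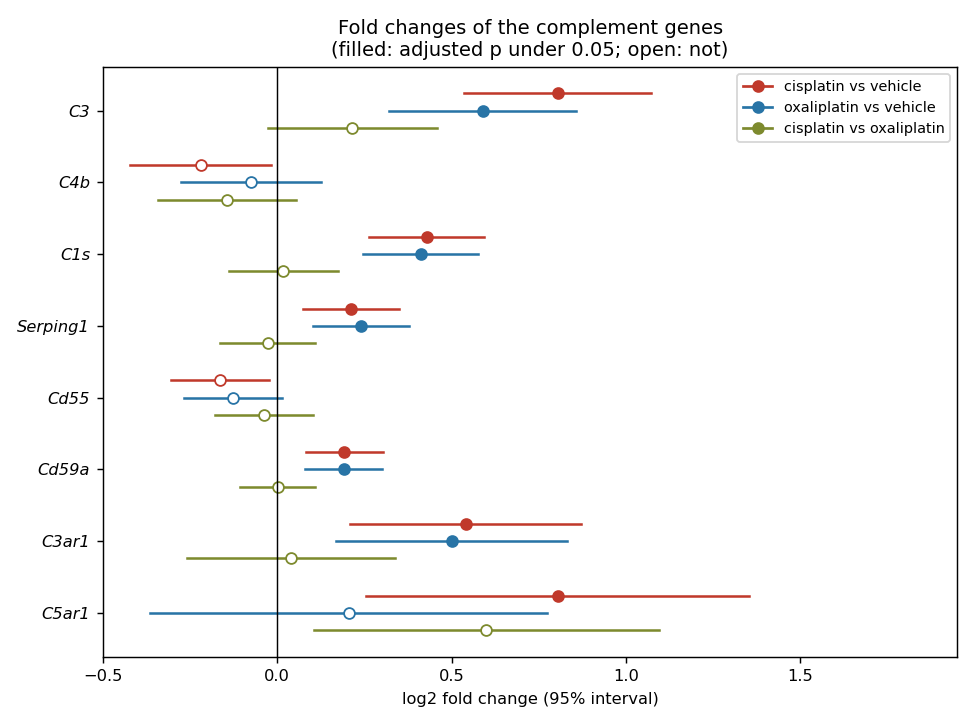
Log2 fold change (horizontal axis) with its 95% interval for the 8 complement genes in the 3 comparisons. Filled points had an adjusted p under 0.05: 6 genes for cisplatin against vehicle, 5 for oxaliplatin against vehicle and 0 for cisplatin against oxaliplatin.

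After cisplatin 6 of the 8 genes were higher and 0 lower (75.0%). Of all tested genes, 15.8% were higher and 22.9% lower. The 8 genes had a median log2 fold change of 0.32, against 0.00 over all genes. Both genes that were not called, C4b and Cd55, had an unadjusted p under 0.05 for a lower level in edgeR; limma-voom and DESeq2 each called 1 gene lower. After oxaliplatin 5 were higher and 0 lower (62.5%). Of all genes, 41.6% were called after oxaliplatin, 17.5% higher and 24.1% lower, and the median was 0.22 for the 8 genes, against 0.00 for all. By unadjusted p in edgeR, 5 were higher and 0 lower, and limma-voom and DESeq2 called 0 lower as well. Library groups did not overlap in 7 of the 8 genes after cisplatin (5 above vehicle, 2 below) and in 5 after oxaliplatin (4 above, 1 below), against 48.0% of all genes after cisplatin (21.3% above, 26.7% below) and 50.5% after oxaliplatin (23.1% above, 27.4% below). The vehicle libraries are shared by both comparisons, and the 8 genes were chosen with earlier results known, so these shares are a description. In the leave-one-out fits, 3 to 6 genes were higher after cisplatin, with 3 without vehicle library 1 and 4 without cisplatin library 1, cisplatin library 2 or vehicle library 3. After oxaliplatin it was 4 to 5. Corrected for GC content and length, 4 were higher after cisplatin and 3 after oxaliplatin.

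The comparison of cisplatin with oxaliplatin asked whether the drugs differ from each other. None of the 8 genes was called in edgeR, limma-voom or DESeq2, and of all genes edgeR called 0.0115%, all of them higher after cisplatin and 0.00% lower. Groups did not overlap in 2 of the 8, C3 (cisplatin above) and C4b (cisplatin below), against 14.1% of all genes (8.04% above, 6.10% below). One gene, C5ar1, had an unadjusted p under 0.05, with a higher level after cisplatin. The median half-width of the 95% interval was 0.19 on the log2 scale over all genes. The interval for C1s excluded a difference beyond 1.13 times in favour of cisplatin, and that for C5ar1 reached 2.13 times.

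Markers of several other cell types moved with these genes. The shares over all tested genes, for comparison, were 15.8% higher and 22.9% lower after cisplatin, and 17.5% and 24.1% after oxaliplatin. Of 15 macrophage markers, 13 were higher and 1 lower after cisplatin and 10 higher and 1 lower after oxaliplatin, with summed levels of 239 to 316 CPM, 229 to 270 CPM and, after vehicle, 162 to 208 CPM. Lyz2, a lysozyme of myeloid cells, averaged 108 CPM after cisplatin, 90.2 after oxaliplatin and 52.5 after vehicle, and S100a9, a neutrophil calcium-binding protein, 80.1, 57.9 and, after vehicle, 22.5 CPM. All 12 neutrophil markers were higher after cisplatin and 11 after oxaliplatin, with sums of 186 to 297, 98.8 to 224 and, after vehicle, 47.7 to 113 CPM. Erythrocyte markers summed to 101 to 218 CPM after cisplatin, 86.4 to 211 CPM after oxaliplatin and 40.4 to 57.6 CPM after vehicle, with 7 of 7 higher after cisplatin and 6 after oxaliplatin. Fibroblast markers summed to 2388 to 2772, 2455 to 2616 and, after vehicle, 1894 to 2135 CPM, endothelial markers to 180 to 224, 189 to 205 and, after vehicle, 129 to 155 CPM, and leptomeningeal and nerve-sheath border markers to 361 to 604, 419 to 561 and, after vehicle, 213 to 256 CPM. Of 10 markers in each of these 3 lists, 10 fibroblast, 8 endothelial and 9 border markers were higher after cisplatin, and 7, 9 and 8 after oxaliplatin. Satellite glia markers did not move one way: of 10, 2 were higher and 3 lower after cisplatin (median log2 fold change -0.015) and 1 was higher and 3 lower after oxaliplatin (median -0.05). Their sum, 3473 to 3720, 3685 to 3892 and, after vehicle, 3020 to 3360 CPM, was mostly Apoe, an apolipoprotein, which averaged 2234 CPM after cisplatin, 2430 after oxaliplatin and 1837 after vehicle. Of 10 Schwann cell markers, 8 were higher and 2 lower after cisplatin and 4 higher and 2 lower after oxaliplatin, with sums of 6016 to 7041, 5852 to 5947 and, after vehicle, 5464 to 6007 CPM. Of 8 hepatocyte markers, 6 had at most 3 reads in every library, 3 of these (Serpina1a, Fgb and Cyp3a11) had 0, and the sum was 0.814 to 1.37 CPM over all libraries. The part of these cell types in the complement values was not tested. In whole ganglia, a change in the number of cells of a type and a change in RNA per cell cannot be told apart.

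Of 52 other complement genes listed by role, 37 passed the low-count filter. After cisplatin 12 were higher and 4 lower (32.4% and 10.8%), with a median of 0.25. After oxaliplatin 12 were higher and 5 lower (32.4% and 13.5%), with a median of 0.35. These counts include Fcnb and, for oxaliplatin, C4a, which passed the filter only through the groups where they were higher. The background is that of all genes given above, and 0 of the 37 differed between the drugs (2 higher and 1 lower after cisplatin by unadjusted p in edgeR, and 0 in limma-voom and DESeq2).

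**Figure D3:**
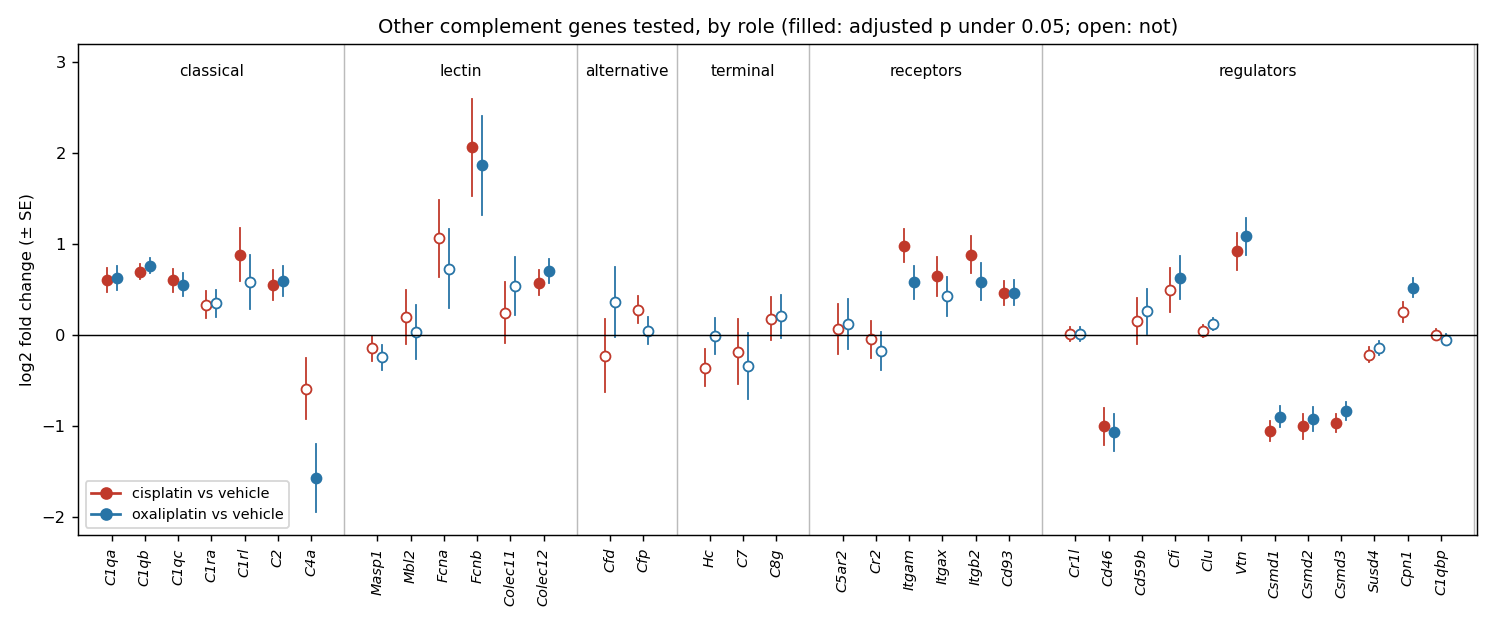
Log2 fold change ± SE (vertical axis) of other complement genes tested, grouped by role, for cisplatin and oxaliplatin against vehicle. Filled points had an adjusted p under 0.05; the genes of C1q and the receptor integrins lie above 0, while the 3 Csmd genes lie near -1.

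Of 7 other classical pathway genes, 5 were higher after cisplatin and 4 after oxaliplatin, where 15.8% and 17.5% of all genes were higher. The 3 chains of C1q, the recognition molecule, rose together. C1qa averaged 18.3 ± 2.35 CPM after cisplatin, 18.6 ± 1.703 after oxaliplatin and 12.1 ± 2.37 after vehicle (SD, n = 3 each). C1qb averaged 14.4 ± 1.146, 15.1 ± 0.354 and, after vehicle, 8.94 ± 0.650 CPM, which gave log2 fold changes of 0.70 (SE 0.08, adjusted p = 8.5e-05) and 0.76 (SE 0.08, adjusted p = 3.59e-05). C1qc changed by 0.60 (adjusted p = 0.00272) and 0.56 (adjusted p = 0.00397). No drug library overlapped a vehicle library for any C1q chain. C1ra, the protease that activates C1s, was at 0.34 (adjusted p = 0.0833) and 0.35 (adjusted p = 0.0700) and did not pass, but passed for both drugs with library totals (0.63, adjusted p = 0.00251, and 0.65, adjusted p = 0.00149), with no count filter (adjusted p = 0.0401 and 0.0268), without cisplatin library 3 (adjusted p = 0.0405 and 0.0476) and without vehicle library 2 (0.49, adjusted p = 0.0165, and 0.50, adjusted p = 0.0134). For oxaliplatin it also passed at 1 CPM in 3 libraries (adjusted p = 0.0480). Library totals alone moved the median of all genes to 0.29 for cisplatin and 0.30 for oxaliplatin, so the C1ra values under that setting include this shift. C4a, the close copy of C4b, was called lower after oxaliplatin on 5 to 9 reads per library, against 9 to 20 after vehicle (-1.57, SE 0.37, adjusted p = 0.00569), and was not called after cisplatin (-0.59, adjusted p = 0.184). With so few oxaliplatin reads C4a passed the count filter only through the vehicle and cisplatin libraries. Its call is therefore no independent sign of a fall, and no alternative fit is given for it.

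Of 6 tested genes listed under the lectin pathway, 2 were higher after each drug and 4 were not called. The shares of all genes called higher were 15.8% after cisplatin and 17.5% after oxaliplatin. Colec12, a scavenger receptor of the collectin family, averaged 22.7 ± 2.61 CPM after cisplatin, 24.7 ± 3.29 after oxaliplatin and 15.4 ± 2.63 after vehicle (adjusted p = 0.00485 and 0.00136). Fcnb, a ficolin of myeloid cells, had 25 to 40 reads after cisplatin, 12 to 40 after oxaliplatin and 4 to 6 after vehicle, with log2 fold changes of 2.06 (SE 0.54, adjusted p = 0.01002) and 1.87 (SE 0.55, adjusted p = 0.0166). With so few vehicle reads Fcnb passed the count filter only through the drug libraries, so its place among the 2 genes called is no independent sign of a rise. Its calls were lost without vehicle library 3 (adjusted p = 0.0550 and 0.0812) and, for oxaliplatin, without oxaliplatin library 3 (adjusted p = 0.0620). Masp1, a serine protease of the pathway, and Mbl2, a mannose-binding lectin, did not pass, at -0.15 and 0.20 after cisplatin and -0.24 and 0.03 after oxaliplatin.

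None of the alternative and terminal pathway genes tested was called in edgeR, nor by unadjusted p. Cfp, properdin, was at 0.28 after cisplatin (adjusted p = 0.153) and 0.05 after oxaliplatin (adjusted p = 0.817), and Cfd, the protease factor D, at -0.22 (adjusted p = 0.692) and 0.37 (adjusted p = 0.473). Under library totals alone Cfp was called after cisplatin (0.58, adjusted p = 0.0102) and Cfd after oxaliplatin (0.68, adjusted p = 0.00279). That setting also moved the median of all genes, to 0.29 for cisplatin and 0.30 for oxaliplatin. Without vehicle library 2 Cfp was called after cisplatin (0.47, adjusted p = 0.0115). Hc, which encodes C5, averaged 1.28 ± 0.265 CPM after cisplatin, 1.64 ± 0.278 after oxaliplatin and 1.64 ± 0.106 after vehicle. C8g and C7, of the membrane pore, were at 0.18 and -0.18 after cisplatin and 0.21 and -0.33 after oxaliplatin. Cfb, C6, C8a, C8b and C9 did not pass the low-count filter, with 58, 18, 4, 16 and 7 reads over the 9 libraries.

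Of 6 other receptor genes, 4 were higher after cisplatin and 3 after oxaliplatin, where 15.8% and 17.5% of all genes were higher. Itgam, the alpha chain of complement receptor 3, averaged 10.2 ± 1.03 CPM after cisplatin, 7.74 ± 1.31 after oxaliplatin and 5.32 ± 1.55 after vehicle, with log2 fold changes of 0.98 (SE 0.18, adjusted p = 0.00119) and 0.58 (SE 0.18, adjusted p = 0.0222). The cisplatin libraries did not overlap the vehicle libraries, and the oxaliplatin libraries did. Its oxaliplatin call was lost without any 1 of oxaliplatin libraries 2 and 3 and vehicle libraries 1 and 3 (adjusted p = 0.0661 to 0.0939). Itgb2, the beta chain, was at 0.89 (adjusted p = 0.00470) and 0.59 (adjusted p = 0.0366), and its oxaliplatin call was lost without cisplatin library 2, oxaliplatin library 2 or 3, or vehicle library 1 or 3 (adjusted p = 0.0505 to 0.148) and with correction for GC content and length (0.46, adjusted p = 0.0726). Itgax, the alpha chain of receptor 4, was called after cisplatin (0.65, adjusted p = 0.0293) and not after oxaliplatin (0.43, adjusted p = 0.125). The cisplatin call was lost without cisplatin library 2 or 3 or vehicle library 1 (adjusted p = 0.0672 to 0.123), in DESeq2 (adjusted p = 0.0722) and with those groups alone (adjusted p = 0.0503). Cd93, a C1q-related receptor of endothelial and myeloid cells, was at 0.46 (adjusted p = 0.0178) and 0.47 (adjusted p = 0.0153). Its calls were lost without vehicle library 1 (adjusted p = 0.0606 and 0.0524) and, for cisplatin, without cisplatin library 1 (adjusted p = 0.0745).

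Of 13 other regulators, 1 was higher and 4 lower after cisplatin (7.69% and 30.8%), and 3 higher and 4 lower after oxaliplatin (23.1% and 30.8%). Of all genes, 15.8% were higher and 22.9% lower after cisplatin, and 17.5% and 24.1% after oxaliplatin. Clu, clusterin, was the most abundant, at 327 ± 19.5 CPM after cisplatin, 345 ± 4.49 after oxaliplatin and 315 ± 23.5 after vehicle, and did not pass (0.05, adjusted p = 0.579, and 0.13, adjusted p = 0.150). Csmd1, a large membrane protein that inhibits complement and is found on neurons, fell to 82.3, 83.6 and 102 CPM after cisplatin and 114, 85.1 and 98.8 CPM after oxaliplatin, against 196, 163 and 194 CPM after vehicle. No drug library reached the vehicle range, and the log2 fold changes were -1.05 (SE 0.11, adjusted p = 5.1e-05) and -0.89 (SE 0.11, adjusted p = 8.99e-05). Over the 16380 genes whose length is annotated (genes are no replicates), the log2 fold change against vehicle had a Spearman correlation of -0.407 (cisplatin) and -0.408 (oxaliplatin) with exon length. With correction for GC content and length Csmd1 was at -0.59 after cisplatin and -0.47 after oxaliplatin, and it was called lower after both drugs under all 11 alternatives and without any 1 of the 9 libraries (highest adjusted p = 0.000658 and 0.00114). Susd4, another membrane inhibitor, was at -0.21 (adjusted p = 0.0504) and -0.14 (adjusted p = 0.171), and passed for both drugs without vehicle library 2 (-0.27, adjusted p = 0.00993, and -0.19, adjusted p = 0.0411) and with correction for GC content and length (-0.30, adjusted p = 0.0121, and -0.23, adjusted p = 0.0405). For cisplatin it also passed with robust empirical Bayes (adjusted p = 0.0462) and without cisplatin library 3 (adjusted p = 0.0291).

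The 3 genes most like each member over the 9 libraries were taken from 13382 candidates by Pearson's r of log2 levels, as a description. Every r includes the difference between the groups, since all 9 libraries enter it. For C3 they were Cd177 (0.988), Cybb (0.987) and Arhgap30 (0.985), and for C1s Hist2h2bb (0.990), Selenbp1 (0.987) and Ptgr2 (0.984). For Serping1 they were Dact1 (0.989), Rps15-ps2 (0.988) and Hpgds (0.985), and for Cd59a BC031181 (0.978), Cmbl (0.973) and Rpl36al (0.970). For C3ar1 they were Cx3cr1 (0.968), Smpd5 (0.966) and Syt5 (0.961), and for C5ar1 Btk (0.956), Hpgd (0.953) and Ccdc142 (0.945). C4b was most like Ell (0.954), Ifit1 (0.927) and Cog3 (0.926), and Cd55 most like Intu (0.966), Lrrc7 (0.951) and Fam135a (0.949).

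**Figure D4:**
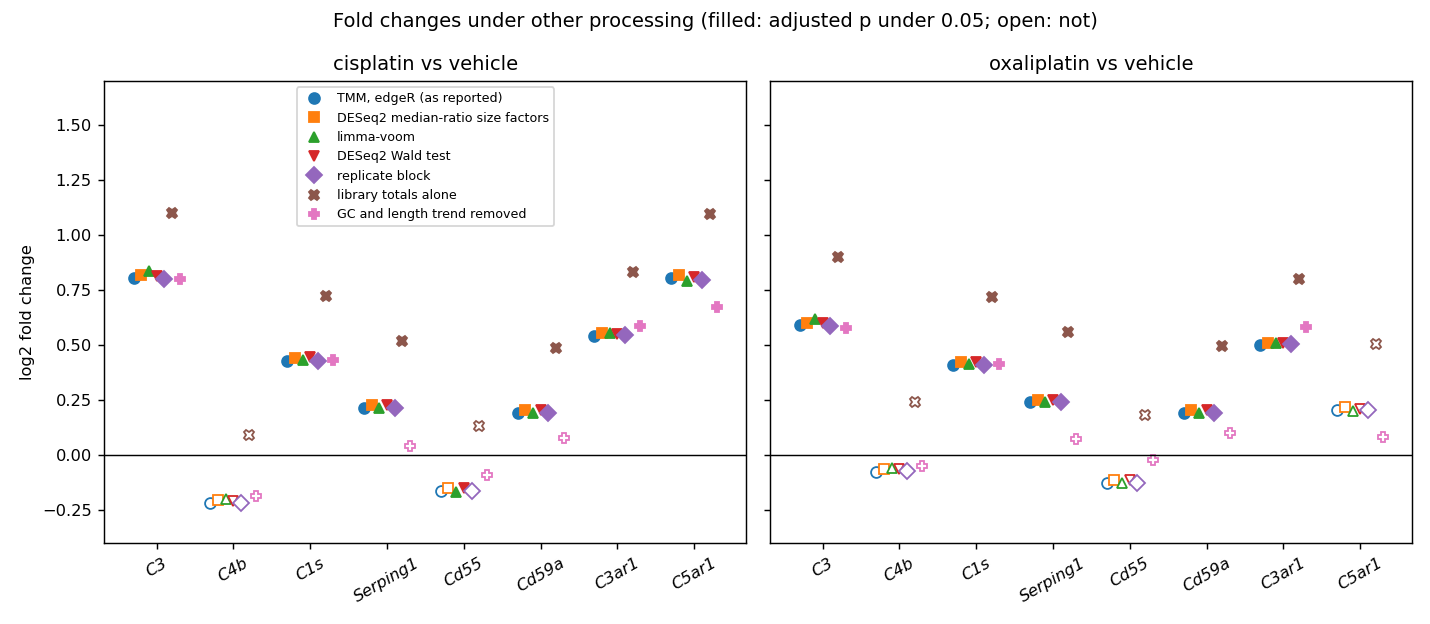
Log2 fold change (vertical axis) of the 8 complement genes against vehicle under the reported and other ways of processing; filled points had an adjusted p under 0.05. C3, C1s and C3ar1 are filled throughout, Serping1 and Cd59a lose their call with correction for GC content and length, and library totals alone lift every gene.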

How the data were processed

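Total RNA of pooled lumbar ganglia was sequenced from stranded libraries with single-end reads of 75 nucleotides. The deposited files hold raw read counts per gene symbol with no normalization by the authors; per the submitters' processing notes, STAR, SAMtools and HTSeq were used with mm10 (GRCm38), while the sources used here give no versions, annotation or strand setting. Antisense reads may therefore be counted with C1s and Cd55. The 5 rows of unassigned reads (42.8 to 74.5% of recorded reads) were left out. The floor of 3 reads corresponded to 0.0711 to 0.188 CPM, and covers counting error only.

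All 9 libraries were fitted together in edgeR 4.0.16 (limma 3.58.1, R 4.3.3) (TMM factors, filterByExpr, a coefficient for each group) and compared by the quasi-likelihood F test; p-values were adjusted by Benjamini-Hochberg over 17348 genes. SEs were derived from F and the fold change. Replicates are pools of different animals, and p-values measure the spread between pools. Counts of every replicate pair differed by more than sampling noise. The members and lists were chosen with earlier results of these data known. Named genes are the 8 members, the 4 most abundant tested genes of each role list, the copies of members, and the 3 genes most like each member; others are said to be chosen after their values were seen. One gene that this rule names is not reported here.

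Alternatives were median-ratio size factors, library totals, no count filter, at least 1 CPM in 3 libraries, limma-voom, DESeq2 1.42.0, robust empirical Bayes, the replicate number as a block, fits of the compared groups only, removal of mitochondrial and structural RNAs, correction for GC content and exon length (mgcv 1.9.3; 94.4% of tested genes had both), and leaving out each library. The procedure was tested on simulated counts. Positions and lengths come from GENCODE M21; the symbols C1s, Gm5077, Daf2 and Emr1 were matched to current names through RefSeq synonyms.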

Additional observations from a re-analysis of the deposited data

How the results depend on the processing

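C3 and C1s kept their direction and call against vehicle for both drugs under every alternative and every left-out library. Counts of calls that moved by over 1.5 times were these. Members higher after oxaliplatin numbered 3 with correction for GC content and exon length, and members lower after cisplatin numbered 1 with limma-voom and 1 with the DESeq2 test. With 1 library left out, members higher after cisplatin numbered 3 to 6 and lower 0 to 1, and other complement genes higher after oxaliplatin 7 to 13, with 7 without oxaliplatin library 3 or vehicle library 3. Over all genes, library totals alone called 5987 higher and 917 lower for cisplatin and 6408 and 996 for oxaliplatin, where the reported fit called 2744 and 3971, and 3043 and 4178. Leaving out 1 library gave 1787 to 3401 higher for cisplatin and 1941 to 3619 for oxaliplatin. Between the drugs, library totals called 30 higher and 38 lower, no count filter 11 and 5, DESeq2 10 and 4, at least 1 CPM in 3 libraries and limma-voom 1 higher each, the groups alone 0, the replicate block 0, and left-out libraries 0 to 2 higher and 0 to 2 lower. The labels give no pairing of the pools by replicate number. Same-numbered libraries correlated at -0.210 to 0.168 in their deviations from group means, and differently numbered ones at -0.315 to 0.281. With 3 libraries per group, these correlations cannot show whether the pools were paired. With the replicate block, 6 members were higher after cisplatin and 5 after oxaliplatin, as without it; it changed no member's call, and made Susd4 (-0.21) pass after cisplatin.

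Signs turned, among values that were not called. With library totals they were, for cisplatin against oxaliplatin, Cd59a -0.0104, and for cisplatin against vehicle, C4b 0.0893, C7 0.10, Cd55 0.13, Cfd 0.0599, Masp1 0.13 and Susd4 0.0686, and for oxaliplatin against vehicle, C4b 0.24, Cd55 0.18, Hc 0.28, Masp1 0.0494 and Susd4 0.15. With correction for GC content and length they were, for cisplatin against oxaliplatin, Cd59a -0.0197, and for cisplatin against vehicle, C8g -0.0313, Clu -0.044, Masp1 0.0719 and Mbl2 -0.0263, and for oxaliplatin against vehicle, C8g -0.0167, Cfp -0.14, Hc 0.13 and Mbl2 -0.18. With no count filter they were, for cisplatin against oxaliplatin, Cd59a -0.0079, and for oxaliplatin against vehicle, Hc 0.038. With at least 1 CPM in 3 libraries they were, for cisplatin against oxaliplatin, Cd59a -3e-04, and for oxaliplatin against vehicle, Hc 0.0145. With removal of structural RNAs they were, for cisplatin against oxaliplatin, Cd59a -9e-04, and for oxaliplatin against vehicle, Hc 0.0081. Leaving out 1 library gave ranges across 0, for cisplatin against vehicle C7 -0.49 to 0.0888, C8g -0.0525 to 0.41 and Cfd -0.45 to 0.13; for oxaliplatin against vehicle C4b -0.13 to 0.0574, C5ar1 -0.0017 to 0.39, C8g -0.0282 to 0.43, Cfp -0.0481 to 0.24, Hc -0.0937 to 0.12 and Mbl2 -0.14 to 0.33; for cisplatin against oxaliplatin C1qa -0.0878 to 0.0811, C1qc -0.0014 to 0.13, C1ra -0.0981 to 0.0768, C1s -0.0191 to 0.0718, C3ar1 -0.0661 to 0.14, C7 -0.0602 to 0.46, C8g -0.0963 to 0.10, Cd59a -0.0214 to 0.0289, Cd93 -0.14 to 0.0686, Fcnb -0.18 to 0.55, Masp1 -0.0265 to 0.15 and Serping1 -0.0618 to 0.0056. The cause of these changes was not tested. Vehicle library 2, with 15963826 scaled reads, limits the precision of the vehicle group.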

Other observations

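Among complement regulators outside the rule for naming, and chosen here after their values were seen, vitronectin (Vtn), which keeps the terminal complex from inserting into membranes, averaged 34.3 ± 12.9 CPM after cisplatin, 38.4 ± 3.51 after oxaliplatin and 18.0 ± 2.24 after vehicle, and rose by 0.92 (SE 0.21, adjusted p = 0.00430) and 1.09 (SE 0.21, adjusted p = 0.00143). C2, the serine protease that C1s cleaves to form the classical C3 convertase, averaged 4.28 ± 0.626, 4.42 ± 0.520 and, after vehicle, 2.96 ± 0.539 CPM, and rose by 0.56 (adjusted p = 0.0187) and 0.60 (adjusted p = 0.0117). Csmd2 and Csmd3, paralogs of Csmd1, fell by 1.002 and 0.96 after cisplatin and by 0.92 and 0.83 after oxaliplatin on the log2 scale. Cd46, a membrane cofactor which in mice is known chiefly from the testis, fell to 1.26 ± 0.153 CPM after cisplatin and 1.20 ± 0.0703 after oxaliplatin, against 2.55 ± 0.652 after vehicle (adjusted p = 0.00258 and 0.00154). The exons of Csmd2, Csmd3 and Cd46 total 17.1, 16.9 and 7.60 kb. Over all genes the fold change against vehicle fell with exon length, and no value corrected for length is given here for these genes. Cpn1, the carboxypeptidase subunit that trims C3a and C5a, averaged 4.14 ± 0.241, 4.97 ± 0.252 and, after vehicle, 3.45 ± 0.263 CPM, and rose after oxaliplatin (0.52, adjusted p = 0.00221) while cisplatin did not pass (0.26, adjusted p = 0.0792); the difference between the drugs did not pass (-0.26, adjusted p = 0.746).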
